A study of Mus musculus with 38 samples.

Results

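Propiconazole and triadimefon, 2 triazole fungicides, were compared directly by the RNA they left in mouse liver after 30 days of feeding. The comparison uses 6 of the 38 arrays of the study, chosen by their labels: 3 from mice on propiconazole and 3 from mice on triadimefon. All mice were males of the CD-1 strain, an outbred stock, 6 to 8 weeks old, and the labels name no genotype. Propiconazole was given in the feed at 2500 ppm, with a stated intake of 349.6 ± 46.7 mg/kg/day, and triadimefon, which the labels spell tridimefon, at 1800 ppm, with a stated intake of 257.1 ± 33.5 mg/kg/day. The labels do not say what the ± stands for. The doses were therefore not matched, and compound and dose cannot be told apart in any difference given here. The 3 control arrays of the same experiment and day, from mice on control feed, serve both compounds, so changes from control are given side by side and are not independent of each other. The labels call the arrays biological replicates without saying that each is 1 animal, so the tests measure the spread between these arrays. Whole liver was ground, so fewer cells of a type and less RNA per cell cannot be told apart.

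Both compounds carry a triazole ring, the group that binds the heme iron of fungal sterol 14-demethylase (CYP51). Propiconazole has a dioxolane ring with a propyl chain and a dichlorophenyl group, and triadimefon is a tert-butyl ketone with a chlorophenoxy group. In rodent liver, triazoles and phenobarbital switch on drug-metabolising enzymes through the nuclear receptors CAR and PXR, whose best known mouse target is Cyp2b10. The labels' title for the study groups these triazoles as tumorigenic and sets them against phenobarbital. How the triazoles differ from each other is the question the 6 arrays address.

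Upstream sequence is shown for 2 pairs of genes whose members were measured apart but share, or almost share, the DNA before their start. Windows run from 250 bases before to 50 after the start of the RefSeq transcript, on GRCm38.p6 and the + strand, and a stretch of each is printed. Cyp2b13 and Cyp2b9 are neighbouring steroid and drug hydroxylases of the CYP2B family on chromosome 7, and their windows were identical at 298 of 300 bases (99.3%). Between Cyp2b13 and Cyp2b10 the windows matched at 223 of 311 aligned columns (71.7%). The stretch that holds both differing bases is printed, with those 2 bases in capitals.
Cyp2b13, chr7:26061245-26061387: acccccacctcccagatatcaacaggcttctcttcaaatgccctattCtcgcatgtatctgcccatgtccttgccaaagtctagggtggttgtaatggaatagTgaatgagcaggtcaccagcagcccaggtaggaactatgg
Cyp2b9, chr7:26173159-26173301: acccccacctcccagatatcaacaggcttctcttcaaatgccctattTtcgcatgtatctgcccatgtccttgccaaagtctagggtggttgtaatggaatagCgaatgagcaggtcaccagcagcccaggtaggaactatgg
Counted from the 5′ end of the whole window, the substitutions from Cyp2b13 to Cyp2b9 are C48T and T104C. Both genes read higher with propiconazole. The difference passed the test for Cyp2b13 and did not for Cyp2b9, which is no test of one gene against the other, and none was made. Closely related transcripts can bind each other's probes, and how alike these transcripts or probes are was not measured here, so the split between the pair is uncertain.

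Ang, the secreted ribonuclease angiogenin, and Rnase4, its neighbour in the same ribonuclease family, start from 1 shared promoter on chromosome 14, and RefSeq gives both the same window. The capitals mark a perfect tandem repeat of a 15-base unit, which 74 of 32851 windows of this length held somewhere (0.225%).
Ang and Rnase4, chr14:51090827-51091076: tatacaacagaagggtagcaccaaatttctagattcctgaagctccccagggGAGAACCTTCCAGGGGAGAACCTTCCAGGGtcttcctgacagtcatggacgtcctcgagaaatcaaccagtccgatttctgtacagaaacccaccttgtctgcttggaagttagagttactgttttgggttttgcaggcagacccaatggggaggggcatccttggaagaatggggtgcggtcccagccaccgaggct
Of 6 pairs of tested genes that share a window, this was the 1 pair in which both genes differed between the compounds past the test, and no pair had 1 such gene.

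Levels are deposited array intensities, scaled to a common distribution and put on a log2 scale after adding 16, so the lowest possible value is 4. A gene was taken as above background at 6.15, the level that 95% of olfactory receptor genes stayed under, and the mean of 9260 of the 17729 tested genes exceeded it. A log2 difference from a group under background depends on the floor and on the number added. Calls were made where the adjusted p of a gene, from a limma fit over all 38 arrays, was under 0.05. Between arrays of the same compound, Pearson's r across these 9260 genes, which are not independent replicates, was 0.95 to 0.96, against 0.933 to 0.952 between the compounds. It was 0.913 to 0.926 between propiconazole and control, 0.928 to 0.945 between triadimefon and control and 0.961 to 0.97 between controls. On the 6 arrays, deposited medians ran from 26.2 to 34.5, the share of values below 0 from 22.2% to 24.3%, and the gap between 3′ and 5′ Gapdh probes from -0.123 to -0.0467 log2 units. Array 2 of propiconazole on day 4 stood apart from the others, with a median of 12.5 and a Gapdh gap of 6.39. It entered the day 30 difference through the shared estimate of the spread, the common scaling, the choice of probe set for each gene and the background level. It also belongs to the group behind the propiconazole values of day 4. All 14 hepatocyte markers were above background on at least 1 array of every group. Their summed intensity was 120700 to 128800 with propiconazole, 128000 to 129900 with triadimefon and 131200 to 133200 in controls.

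Propiconazole and triadimefon differed at 692 of the 17729 genes (3.9%), of which 394 (2.22%) were higher with propiconazole and 298 (1.68%) lower. Among genes with a mean above background 427 of 9260 were called (4.61%). That count uses arrays of the other groups for the spread: the median within-group SD was 0.218 on these 6 arrays, 0.149 in the phenobarbital experiment and 0.231 in the shared estimate. A second fit used only the conazole experiment without array 2 of propiconazole on day 4, 17 arrays in all, and called 43 of 17323 genes (0.248%), 25 higher and 18 lower, while 2221 had an unadjusted p under 0.05. With only the 9 conazole arrays of day 30 the fit called 28 genes, and with only the 6 arrays compared it called 0, with 2156 genes at an unadjusted p under 0.05. The 17-array and 38-array fits take the difference from the same 6 arrays, so a shared call or direction is no replication. Of the 43 genes, 39 were among the 692, with the same direction in both, and these 39 carry the account that follows. Of these, 29 had a mean above background and 28 were called without each of the 6 arrays in turn. Other scalings or gene summaries ended some of these 39 calls in the 38-array fit. Median scaling ended 7, those of Glul, Onecut2, Pvr, Rnase4, Sh3bp5, Tprn and Vwce. Values as deposited ended 10, those of Best2, Cttn, Eif3k, Glul, Nt5m, Onecut2, Plp2, Pvr, Tprn and Vwce. Taking the median over a gene's probe sets ended 9, those of 2810410L24Rik, Atg4d, Atp8a1, Cttn, Ids, Pdhb, Pvr, Sh3bp5 and Sox4. The 2 groups of arrays did not overlap for 3050 genes (17.2%), 1700 of them higher with propiconazole, and for 609 of the 692 called genes. Leaving out single arrays moved the count of 692 to 423 without propiconazole array 3, 416 without triadimefon array 3 and 454 without triadimefon array 1, and to between 601 and 669 without each of the other 3 arrays. Without array 2 of propiconazole on day 4, the 38-array fit called 1159.

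**Figure D1:**
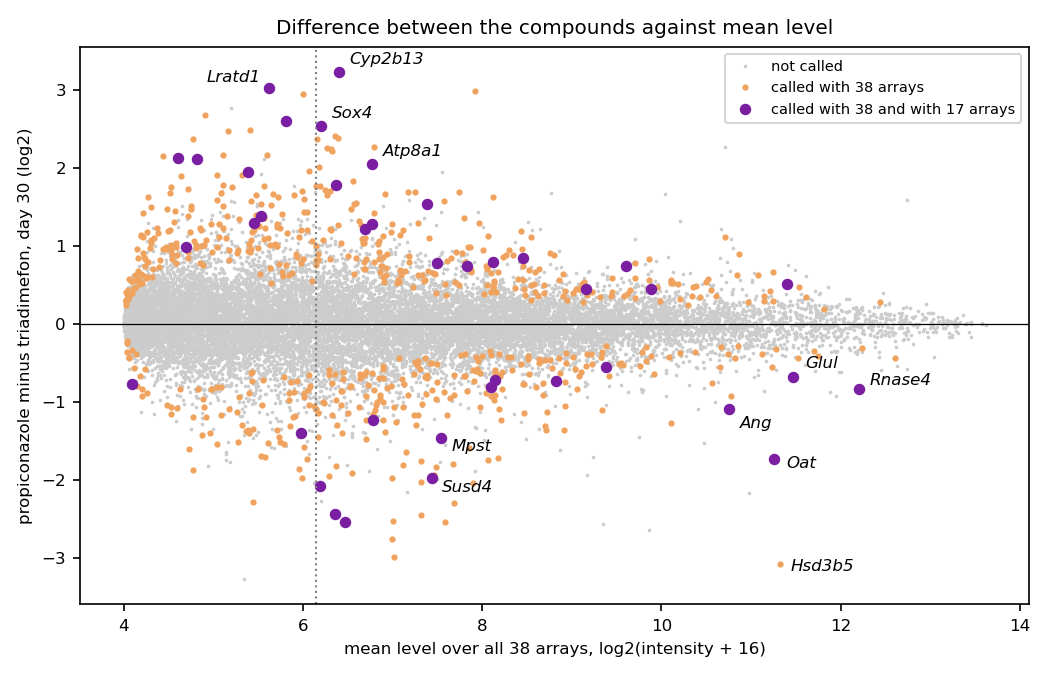
Each point is 1 gene, with its mean level over 38 arrays on the x axis (log2 of intensity + 16) and the difference propiconazole minus triadimefon on day 30 on the y axis (log2); the dotted line is background. Of 692 called genes, 39 (purple) were also called with 17 arrays and 653 (orange) only with 38, many of them left of the background line.

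Against the 3 shared controls, propiconazole changed 1917 genes (10.8%), 937 of them up (5.29%) and 980 down (5.53%), and triadimefon 958 (5.4%), 427 up (2.41%) and 531 down (3.0%). With 17 arrays these counts were 827 (4.77%) and 190 (1.1%), and in the 38-array fit without array 2 of propiconazole on day 4 they were 2795 and 1696. Of the 39 genes, 23 were called against control with propiconazole but not triadimefon, 10 with triadimefon but not propiconazole, 3 with both and 3 with neither. Whether a gene is called against control with 1 compound and not with the other is no test of their difference, which is the direct comparison given for each gene.

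The CAR targets that define the response to this kind of compound were high with both, and most did not pass the test between them. Cyp2b10 stood at 13.03, 13.05 and 13.07 on the propiconazole arrays, at 12.85, 12.88 and 12.73 on the triadimefon arrays and at 6.44, 5.84 and 9.05 in controls. The compounds did not overlap, but the difference was 0.23 log2 units with a 95% interval of -0.68 to 1.14 (adjusted p = 0.89). Against control, Cyp2b10 rose by 5.94 ± 0.45 (SE) with propiconazole and by 5.71 ± 0.45 with triadimefon. Cyp2c55, another CAR and PXR target, read 12.69, 12.84 and 12.74 with propiconazole, 12.39, 12.40 and 12.29 with triadimefon and 6.46, 5.95 and 7.86 in controls. Its difference of 0.40 had an interval of -0.25 to 1.04 (adjusted p = 0.59), against rises over control of 6.00 ± 0.32 and 5.60 ± 0.32. The highest value of any gene on the 6 arrays was 13.71, so these genes were read near the top of the range. Cyp3a11, a main steroid and drug hydroxylase, read 13.10 to 13.18 with propiconazole and 13.08 to 13.16 with triadimefon, and Cyp2c29 13.27 to 13.30 and 13.21 to 13.26. Controls were as high for Cyp3a11, at 13.02 to 13.10. Whether intensity still follows RNA at these levels was not tested.

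Cyp2b13 was the enzyme of this family that passed the test between the compounds. It read 8.96, 8.87 and 10.78 with propiconazole, 6.49, 7.01 and 5.45 with triadimefon, where 2 of 3 arrays were above background, and 5.28, 5.76 and 5.38 in controls. All propiconazole arrays lay above all triadimefon arrays, by 3.22 ± 0.56 log2 units or 9.35-fold (interval 2.09 to 4.36, adjusted p = 0.00089, 0.018 with 17 arrays). The call held without each of the 6 arrays in turn and was lost in the fits of 9 and of 6 arrays. Against control Cyp2b13 rose by 4.06 ± 0.56 with propiconazole, while the value for triadimefon was 0.84 ± 0.56 (adjusted p = 0.45). Cyp2b9, whose upstream stretch is printed beside it, read 9.13, 9.15 and 10.83 with propiconazole, 7.65, 8.83 and 6.80 with triadimefon and 5.25, 5.0 and 7.30 in controls. Its arrays did not overlap either, and the difference of 1.94 (interval 0.53 to 3.35) did not pass the test (adjusted p = 0.12). Propiconazole array 3 was the highest for both genes.

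Of the 20 measured CYP2B, CYP2C and CYP3A enzymes, Cyp2b13 alone was called (5.0%, beside 3.9% of all genes), and 16 had a difference above 0, with a median of 0.19 against 0.0 over all genes. Against control, 10 rose and 1 fell with propiconazole, and 7 rose and 1 fell with triadimefon, where 5.29% and 2.41% of all genes rose. Cyp2c65 read 10.25, 10.65 and 9.72 with propiconazole, 9.19, 9.55 and 9.19 with triadimefon and 4.24, 4.00 and 4.00 in controls, a difference of 0.90 (interval 0.07 to 1.73, adjusted p = 0.24). Cyp2c37 differed by 0.89 (interval -0.08 to 1.86, adjusted p = 0.35). The other 15 measured CAR and PXR responsive genes held no called member, with a median of 0.16, although 9 rose over control with propiconazole and 7 with triadimefon. Among them Gadd45b, a growth arrest gene that CAR activates, read 9.40, 9.95 and 8.38 with propiconazole, 7.96, 8.41 and 7.64 with triadimefon and at most 4.08 in controls. Its arrays overlapped between the compounds, and its difference of 1.24 had an interval of -0.08 to 2.56 (adjusted p = 0.34). Nr1i3, the gene of CAR itself, read 7.69, 7.73 and 8.26 with propiconazole and 8.59, 8.48 and 8.95 with triadimefon, a difference of -0.78 (adjusted p = 0.56).

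**Figure D2:**
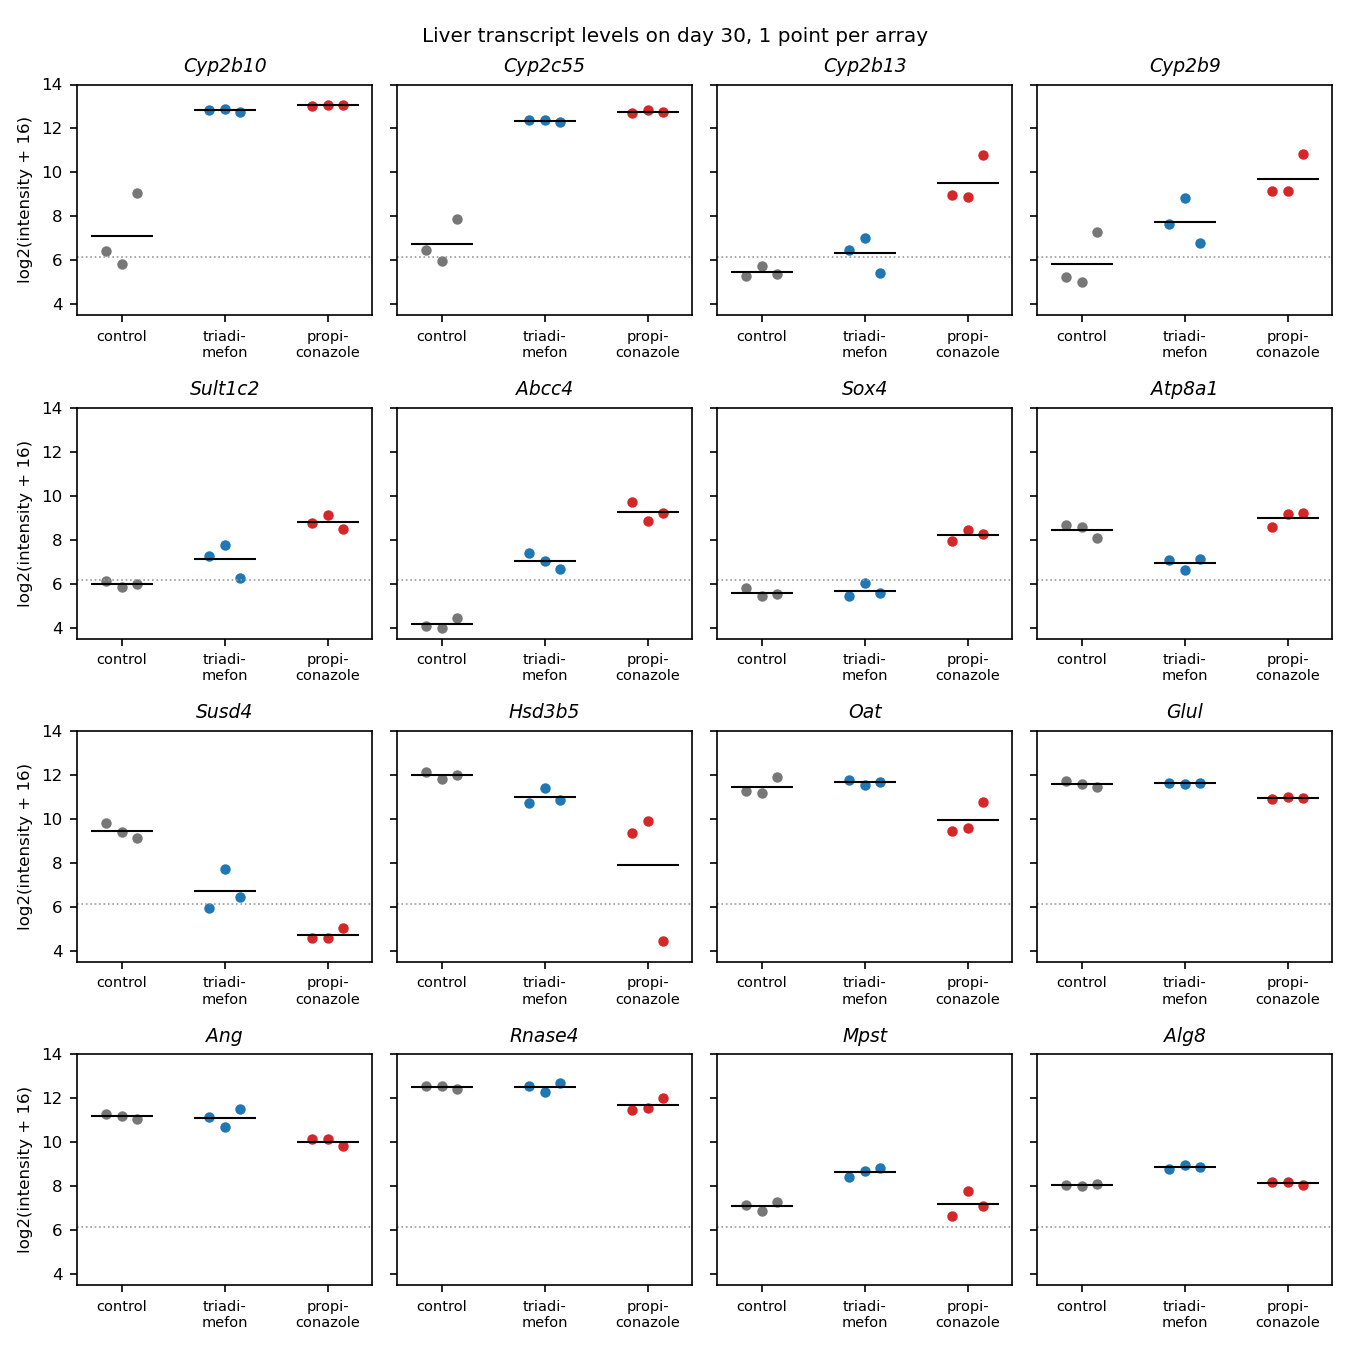
Levels of 16 genes on day 30 (log2 of intensity + 16), 1 point for each of 3 control, 3 triadimefon and 3 propiconazole arrays, with a line at each group's mean and background dotted. Cyp2b10 and Cyp2c55 were high with both compounds, Cyp2b13 and Sox4 with propiconazole, and Mpst and Alg8 with triadimefon.

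Conjugation, carbonyl reduction and efflux, which are steps of drug clearance, each held a gene or more called higher with propiconazole, all with the 38-array fit only. Sult1c2, a cytosolic sulfotransferase, read 8.74, 9.13 and 8.50 with propiconazole, 7.26, 7.77 and 6.27 with triadimefon and 6.10, 5.86 and 6.00 in controls. All propiconazole arrays exceeded all triadimefon arrays, by 1.69 ± 0.33 or 3.23-fold (adjusted p = 0.0032, 0.055 with 17 arrays), and the call held without each of the 6 arrays. It rose over control with both compounds, by 2.81 ± 0.33 and 1.11 ± 0.33. Sult1c2 was the 1 called of 20 measured UDP-glucuronosyltransferases and sulfotransferases (5.0%, near the 3.9% of all genes). None of the 20 glutathione S-transferases was called (median 0.20), although 6 rose over control with propiconazole and 4 with triadimefon. Gstm2 read 12.27, 12.29 and 12.33 with propiconazole and 11.63, 11.56 and 11.76 with triadimefon, a difference of 0.65 with an interval of -0.02 to 1.32 (adjusted p = 0.31).

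Abcc4, an efflux pump for conjugates and nucleotides, read 9.71, 8.84 and 9.22 with propiconazole, 7.41, 7.04 and 6.67 with triadimefon and 4.07, 4.00 and 4.45 in controls. The 3 groups did not overlap, and propiconazole exceeded triadimefon by 2.22 ± 0.53 or 4.65-fold (adjusted p = 0.014, 0.16 with 17 arrays). Without propiconazole array 1 or triadimefon array 3 the call was lost, with an adjusted p of up to 0.067. It was the 1 called of 16 efflux transporters (6.25%, beside 3.9% of all genes). Cbr1, a carbonyl reductase, read 10.84, 10.76 and 11.04 with propiconazole, 10.12, 10.13 and 9.90 with triadimefon and 9.15, 9.56 and 9.59 in controls, a difference of 0.83 ± 0.22 or 1.78-fold (adjusted p = 0.028). That call was lost without propiconazole array 1 or 3 or triadimefon array 1 or 3, with an adjusted p of up to 0.11. Cbr3, its inducible relative, read 8.58, 6.73 and 5.83 with propiconazole, 2 of 3 arrays above background, and 4.90, 4.22 and 4.00 with triadimefon, none above it, so that it was at least 1.86-fold higher (adjusted p = 0.0064; 0.051 without propiconazole array 1). Here and elsewhere "at least" sets the brighter group's mean against the lowest level counted as above background. Cbr1 and Cbr3 were the 2 called of 27 other phase I oxidoreductases (7.41%, beside 3.9% of all genes), and Cbr3 and Abcc4 the 2 called of 17 genes that respond to NRF2, the sensor of electrophiles (11.8%, median 0.20). Nqo1, a quinone reductase of the NRF2 list, read 7.21, 6.08 and 7.01 with propiconazole and 5.91, 5.18 and 5.54 with triadimefon, a difference of 1.23 that did not pass the test (adjusted p = 0.074).

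Genes with sex-biased expression in mouse liver, which growth hormone sets, were called in 3 cases. Of 23 male-biased genes 2 were lower with propiconazole (8.70%, beside 1.68% of all genes), and of 22 female-biased genes 1, Cyp2b13, was higher (4.55%, beside 2.22%). Susd4, a complement regulator with male bias, read 4.57, 4.60 and 5.03 with propiconazole, none above background, and 5.94, 7.74 and 6.44 with triadimefon, 2 of 3 above it, against 9.80, 9.40 and 9.12 in controls. The 3 groups were in order without overlap, and Susd4 was at least 1.47-fold lower with propiconazole than with triadimefon (difference -1.97 ± 0.45, adjusted p = 0.011, 0.048 with 17 arrays; 0.081 without triadimefon array 2). Against control it fell by 4.71 ± 0.45 with propiconazole and fell by 2.74 ± 0.45 with triadimefon. Hsd3b5, a male-specific keto-steroid reductase, read 9.34, 9.90 and 4.45 with propiconazole, 10.71, 11.39 and 10.84 with triadimefon and 12.13, 11.80 and 12.02 in controls. Propiconazole array 3 was below background and the other two were not, and the difference of -3.08 ± 0.77 (adjusted p = 0.019, 0.23 with 17 arrays) was lost without propiconazole array 3 or triadimefon array 2 or 3, with an adjusted p of up to 0.19. The medians of the lists were -0.17 for male-biased and 0.33 for female-biased genes, against 0.0 over all genes. Against control 8 of the 23 male-biased genes fell with propiconazole and 5 with triadimefon, and none rose, where 5.53% and 3.0% of all genes fell. Obp2a, a male-biased odorant-binding protein, was low with both compounds: it read 4.00 to 4.05 with propiconazole, 4.89 to 5.67 with triadimefon and 8.32 to 10.97 in controls.

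Oat and Glul, enzymes of the last hepatocytes before the central vein, where Wnt signalling sets expression, were lower with propiconazole, and neither was called against control with triadimefon. Oat, ornithine aminotransferase, read 9.45, 9.56 and 10.79 with propiconazole, 11.78, 11.54 and 11.69 with triadimefon and 11.27, 11.20 and 11.92 in controls. All propiconazole arrays lay below all others, and the compounds differed by -1.73 ± 0.31, a 3.33-fold difference (interval -2.37 to -1.09, adjusted p = 0.0015, 0.036 with 17 arrays). The call held without each of the 6 arrays. Glul, glutamine synthetase, read 10.89, 11.02 and 10.97 with propiconazole, 11.65, 11.61 and 11.65 with triadimefon and 11.74, 11.59 and 11.47 in controls. Its groups were tight and apart, with a difference of -0.68 ± 0.17 or 1.60-fold (adjusted p = 0.017, 0.048 with 17 arrays), and the call was lost without propiconazole array 1 or 3 or triadimefon array 1 or 3, with an adjusted p of up to 0.056. Against control, Oat fell by 1.53 ± 0.31 and Glul by 0.64 ± 0.17 with propiconazole, while triadimefon gave 0.20 ± 0.31 and 0.04 ± 0.17.

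Rgn, regucalcin, a gluconolactonase on the same list, read 11.93, 12.19 and 12.32 with propiconazole and 12.51, 12.63 and 12.62 with triadimefon, a difference of -0.44 ± 0.11 (adjusted p = 0.022, 0.18 with 17 arrays; up to 0.13 without propiconazole array 1 or triadimefon array 2 or 3, where the call was lost). These were the 3 called of 21 pericentral Wnt dependent genes (14.3%, beside 3.9% of all genes), of which 4 had a difference above 0, with a median of -0.35. The differences of the list ran from -1.73 to 1.69, and 15 of the 21 genes had a mean above background. Axin2, a direct Wnt target, differed by -0.76, and Rnf43, an inhibitor of Wnt receptors, by -0.72, neither past the test. Cyp2e1, a pericentral ethanol oxidase, differed by -0.09, and Lgr5, the R-spondin receptor, by -0.07. None of the 20 urea cycle and periportal enzymes was called.

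Heme, which every cytochrome P450 carries, is made in a chain of enzymes that starts with Alas1. Alas1 read 12.36, 12.47 and 11.72 with propiconazole, 11.39, 11.12 and 10.75 with triadimefon and 10.43, 11.85 and 10.20 in controls. The compounds did not overlap, but the difference of 1.09 (interval 0.21 to 1.98) did not pass the test (adjusted p = 0.17). Further down the chain 2 enzymes were lower with propiconazole in the 38-array fit. Uros, uroporphyrinogen synthase, read 8.02, 7.15 and 8.43 against 8.44, 8.71 and 8.94, a difference of -0.83 ± 0.18 (adjusted p = 0.0086; up to 0.073 without propiconazole array 2 or triadimefon array 3, where the call was lost), with 1 of 2 probe sets in that direction. Cpox, coproporphyrinogen oxidase, read 9.65, 10.68 and 10.02 against 10.66, 11.21 and 11.27, a difference of -0.93 ± 0.22 (adjusted p = 0.012; up to 0.086 without propiconazole array 1 or 3 or triadimefon array 3, where the call was lost). Cpox overlapped in 1 pair of arrays. Blvra, biliverdin reductase, in the breakdown of heme, differed by -0.91 ± 0.24 (adjusted p = 0.023; up to 0.21 without propiconazole array 2 or triadimefon array 1 or 3, where the call was lost). None of these calls was made with 17 arrays, and they were the 3 called of 12 genes (25.0%, beside 3.9% of all genes), with a list median of 0.09.

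The enzyme that triazoles inhibit in fungi has a mammalian counterpart in cholesterol synthesis, Cyp51. It read 9.76, 9.45 and 9.30 with propiconazole, 9.60, 9.57 and 10.21 with triadimefon and 9.85, 10.30 and 10.47 in controls. The compounds overlapped, with a difference of -0.29 and an interval of -0.79 to 0.21 (adjusted p = 0.62). None of the 18 cholesterol synthesis genes was called between the compounds, with a median of -0.07.

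Single members of other metabolic lists passed the 38-array test and no call among them was made with 17 arrays. Acaca, which makes the malonyl-CoA that fatty acid synthesis starts from, read 9.35, 8.94 and 9.89 with propiconazole and 8.14, 8.61 and 8.69 with triadimefon, a difference of 0.91 (adjusted p = 0.014, lost without propiconazole array 3 or triadimefon array 1). It was the 1 called of 31 fatty acid and triglyceride genes (3.23%, below the 3.9% of all genes), and its call was lost with the median over its 2 probe sets. Elovl6, a fatty acid elongase, differed by 1.09 (adjusted p = 0.062). Gckr, the inhibitor of glucokinase, read 10.51, 10.60 and 10.81 against 10.25, 10.23 and 10.11 (difference 0.44, adjusted p = 0.014; up to 0.10 without propiconazole array 3 or triadimefon array 3, where the call was lost). Psmd8, a subunit of the proteasome cap, read 11.20, 11.23 and 11.14 with propiconazole and 10.57, 10.67 and 10.44 with triadimefon (difference 0.63, adjusted p = 0.026), and it and Psmb2 were the 2 called of 31 proteasome subunits (6.45%, beside 3.9% of all genes), of which 24 had a difference above 0, against 8777 of all 17729 genes. Of 41 respiratory chain subunits 33 had a difference above 0, with a median of 0.11, and 2 were called (4.88%, near the 3.9% of all genes), Ndufa8 at 0.42 (adjusted p = 0.022) and Uqcrfs1 at 0.19 (adjusted p = 0.044). Among the fits that leave out 1 of the 6 arrays, Psmd8 stayed called only without triadimefon array 2, Ndufa8 and Psmb2 only without propiconazole array 2 or triadimefon array 2, and Uqcrfs1 in none. Rdh9, a retinol dehydrogenase, read 7.57, 7.24 and 8.36 with propiconazole and 8.90, 9.59 and 8.77 with triadimefon (difference -1.36, adjusted p = 0.046), and Cyp2j5, a fatty acid epoxygenase, differed by -0.31 (adjusted p = 0.045). Rdh9 stayed called only without propiconazole array 3 and Cyp2j5 in none of those fits.

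**Figure D3:**
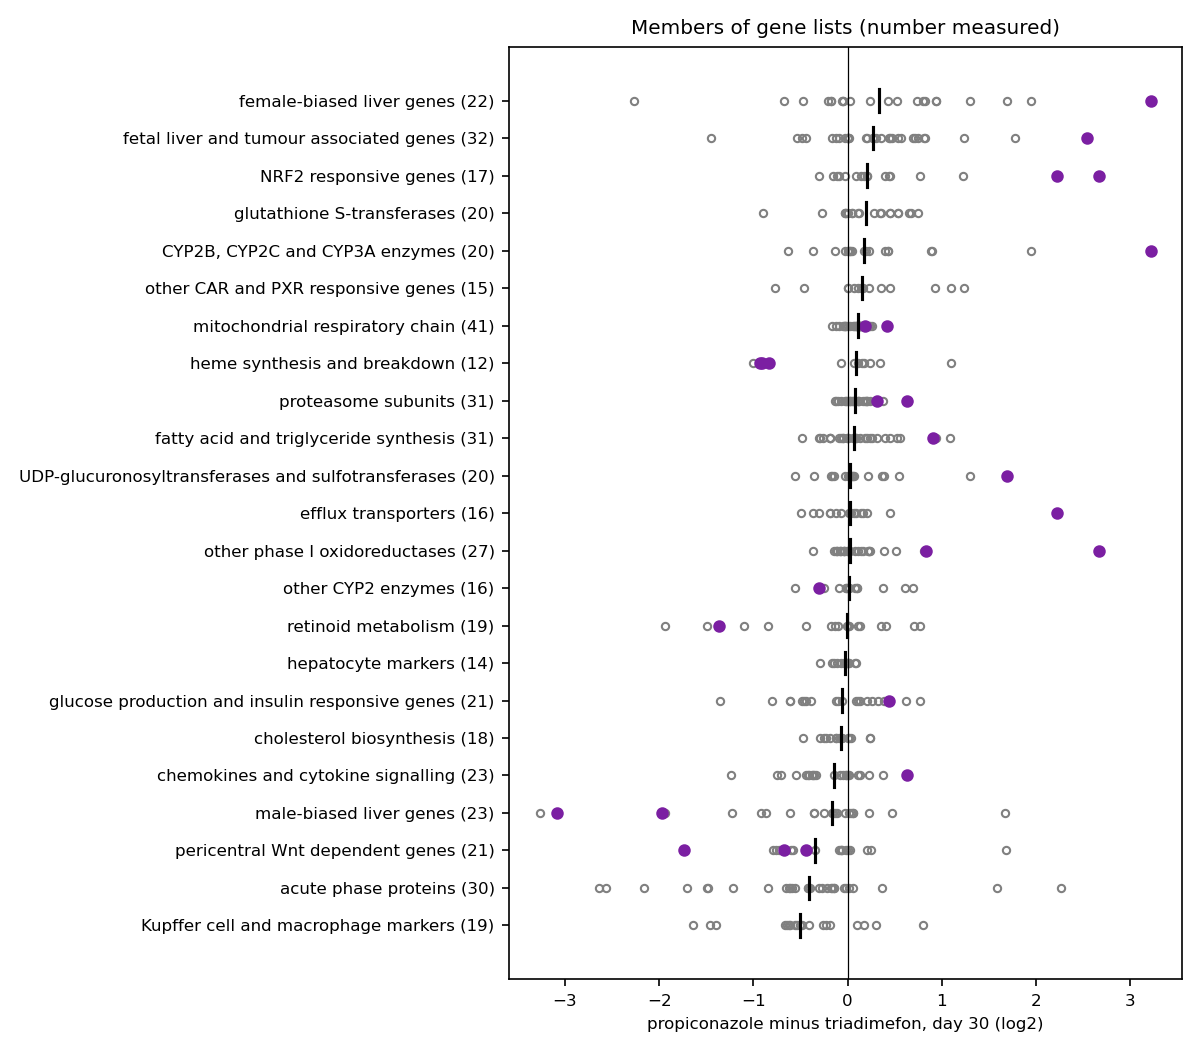
Members of 23 gene lists by their difference, propiconazole minus triadimefon on day 30 (log2), with called genes filled, others open, the median as a bar and the number measured in each label. The lists hold 3 called members at most, and pericentral genes had a median of -0.35 with 3 called, Oat, Glul and Rgn.

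Sox4, a transcription factor of progenitor and tumour cells, had the smallest p of the comparison among the genes named here. It read 7.93, 8.44 and 8.27 with propiconazole, while triadimefon at 5.43, 6.05 and 5.56 and controls at 5.78, 5.43 and 5.54 were all under background. Sox4 was at least 4.18-fold higher with propiconazole (difference 2.54 ± 0.22, interval 2.08 to 3.0, adjusted p = 3.1e-08, 0.0019 with 17 arrays). Of its 8 probe sets, 7 had the same direction, but only 1 had a mean above background. The call was lost when the median over probe sets stood for the gene. It was the 1 called of 32 fetal liver and tumour associated genes (3.12%, below the 3.9% of all genes), whose median was 0.27. Bile duct and progenitor cells also express Sox4, and biliary markers are given for that reason. None of 13 was called, and 8 had a difference above 0, with a median of 0.15. Their summed intensity was 2558 to 2991 with propiconazole, 2269 to 2439 with triadimefon and 1769 to 2115 in controls, without overlap between the groups. For each compound 8 of them were under background on all its arrays. Whether such cells bear on the Sox4 values was not tested. Krt7, a defining duct keratin, was at the lowest possible value on all 9 arrays, and Krt19 on the propiconazole arrays. Sox9, a duct and progenitor factor, read 7.88, 7.18 and 6.83 with propiconazole and 6.85, 6.80 and 5.82 with triadimefon (difference 0.81, adjusted p = 0.24).

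Among the other genes called in both fits and higher with propiconazole, Atp8a1, a flippase that moves phospholipids across membranes, was near control with propiconazole, where it was not called, and below control with triadimefon. It read 8.57, 9.19 and 9.21 with propiconazole, 7.07, 6.62 and 7.12 with triadimefon and 8.65, 8.58 and 8.07 in controls. The difference between the compounds was 2.05 ± 0.28 or 4.14-fold (adjusted p = 5.8e-05, 0.006 with 17 arrays), and Atp8a1 fell against control by 1.5 ± 0.28 with triadimefon. Only 4 of its 7 probe sets had that direction, and the call was lost with their median. The same pattern was seen for Plp2, a membrane protein of the endoplasmic reticulum, at 8.80, 8.91 and 8.46 with propiconazole, 7.95, 7.99 and 7.91 with triadimefon and 8.77, 8.69 and 8.68 in controls. Its difference was 0.78 ± 0.15 (adjusted p = 0.0025, 0.048 with 17 arrays). Pdhb, a subunit of pyruvate dehydrogenase, read 11.45, 11.65 and 11.62 against 11.08, 11.12 and 10.98, with controls at 11.29 to 11.45 (difference 0.51 ± 0.09, adjusted p = 0.0008, 0.048 with 17 arrays). Tprn, a protein of actin-rich cell edges, read 6.47, 7.40 and 6.51 with propiconazole, 5.63, 5.48 and 5.41 with triadimefon and 7.19, 7.51 and 7.49 in controls, at least 1.56-fold higher with propiconazole than with triadimefon (adjusted p = 0.017, and lost without propiconazole array 2 or triadimefon array 3). Against control Tprn fell by 1.89 ± 0.32 with triadimefon.

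Other genes of the 39 were higher than control with propiconazole and were not called against control with triadimefon. Lratd1, a gene of the LRAT domain family, read 7.88, 8.05 and 7.56 with propiconazole, 5.01, 4.37 and 5.06 with triadimefon and 4.33, 5.18 and 4.77 in controls, at least 3.20-fold higher (difference 3.02 ± 0.47, adjusted p = 0.00033, 0.022 with 17 arrays). Tc2n, which carries C2 domains, read 6.49, 6.91 and 7.02 against 4.46, 4.82 and 4.80 with triadimefon, at least 1.58-fold higher, with 4 of 4 probe sets in that direction but none with a mean above background. Both genes were under background on every triadimefon and control array. Pvr, a cell adhesion receptor related to nectins, read 8.00, 8.36 and 8.57 with propiconazole, 7.12, 7.25 and 6.90 with triadimefon and 6.80, 6.63 and 6.90 in controls (difference 1.22 ± 0.30, adjusted p = 0.017, and lost without propiconazole array 3 or triadimefon array 3). Cttn, cortactin, which binds branched actin, read 9.43, 9.62 and 9.57 against 9.06, 9.17 and 9.04, with controls at 9.06 to 9.19 (difference 0.45 ± 0.08, adjusted p = 0.0013). Nt5m, a mitochondrial nucleotidase, read 8.54, 8.46 and 8.56 against 7.93, 7.77 and 7.65, with controls at 7.74 to 8.04 (difference 0.74 ± 0.13, adjusted p = 0.00098). Atg4d, a protease that processes autophagy proteins, read 8.37, 8.42 and 8.24 against 7.65, 7.50 and 7.49, with controls at 7.72 to 7.76 (difference 0.79 ± 0.12, adjusted p = 0.0004, 0.012 with 17 arrays). The direction was shared by 5 of 7 probe sets of Pvr, 4 of 5 of Cttn and 1 of 2 of Atg4d, and with the median over probe sets all 3 calls were lost, at adjusted p = 0.66, 0.99 and 0.17. In each of these the propiconazole arrays lay above all others.

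Genes named only by clone or prediction were also among those higher with propiconazole in both fits. Gm732 read 8.75, 9.14 and 9.21 with propiconazole, 7.50, 7.50 and 6.78 with triadimefon and 6.79 to 7.45 in controls, 3.42-fold higher (difference 1.77 ± 0.19, adjusted p = 2.2e-06, 0.0059 with 17 arrays). The clone 2810410L24Rik read 8.61, 8.74 and 8.69 against 6.93, 7.30 and 7.21, with controls at 7.33 to 7.90 (difference 1.53 ± 0.23, adjusted p = 0.00022), and 1 of its 2 probe sets had that direction. In both, the propiconazole arrays lay above all others. Gm17508 was at least 1.20-fold higher, with 2 of 3 propiconazole arrays and no triadimefon array above background.

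Other genes called in both fits and higher with propiconazole follow in brief. Hint3, a nucleotide hydrolase, differed by 0.74 and Eif3k, a subunit of translation initiation factor 3, by 0.45, both called without each of the 6 arrays. Vwce differed by 0.84 and lost its call without propiconazole array 3. Art5, of the ADP-ribosyltransferase family, was at least 2.07-fold higher, at 7.14 to 7.32 against 5.63 to 6.01. Best2, a bestrophin anion channel, was at least 1.30-fold higher, at 6.51 to 6.54 against 4.99 to 5.41, and lost its call without triadimefon array 1. Col2a1, a cartilage collagen, read 6.70, 7.27 and 7.70 with propiconazole, 4.30, 4.00 and 5.56 with triadimefon and 5.98, 5.97 and 7.66 in controls, at least 2.10-fold higher with propiconazole than with triadimefon, and it fell against control by 1.91 ± 0.37 with triadimefon. Gdpd5 and Hoxa13 differed by 1.95 and 0.98 with neither group clearly above background, and the second lost its call without propiconazole array 1 or 3 or triadimefon array 1 or 3.

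Ang and Rnase4, whose shared upstream window is printed with its repeat, were both lower with propiconazole and were not called against control with triadimefon. Ang read 10.12, 10.15 and 9.81 with propiconazole, 11.16, 10.67 and 11.53 with triadimefon and 11.28, 11.19 and 11.07 in controls. Its difference of -1.09 ± 0.21, a 2.13-fold difference (adjusted p = 0.0024, 0.022 with 17 arrays), had the same direction in 3 of 3 probe sets. Rnase4 read 11.48, 11.57 and 12.01 with propiconazole, 12.57, 12.28 and 12.71 with triadimefon and 12.56, 12.57 and 12.44 in controls. It differed by -0.83 ± 0.17, a 1.78-fold difference (adjusted p = 0.0048, 0.036 with 17 arrays), a call lost with median scaling. For both genes the propiconazole arrays lay below all others, and both calls held without each of the 6 arrays. Against control Ang fell by 1.15 ± 0.21 and Rnase4 by 0.84 ± 0.17 with propiconazole, against -0.06 ± 0.21 and 0.00 ± 0.17 with triadimefon.

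Mpst and Alg8 showed the opposite pattern, raised with triadimefon and not called against control with propiconazole. Mpst, a sulfurtransferase that makes hydrogen sulfide from cysteine's breakdown product, read 6.64, 7.79 and 7.08 with propiconazole, 8.40, 8.67 and 8.82 with triadimefon and 7.15, 6.86 and 7.27 in controls. The compounds differed by -1.46 ± 0.22, or 2.76-fold (adjusted p = 0.00022, 0.036 with 17 arrays), and against control Mpst rose by 1.53 ± 0.22 with triadimefon. Alg8, a glucosyltransferase of the N-glycan precursor, read 8.18, 8.20 and 8.07 with propiconazole, 8.79, 8.95 and 8.86 with triadimefon and 8.07, 8.00 and 8.09 in controls. Its difference was -0.72 ± 0.17 (adjusted p = 0.013, 0.048 with 17 arrays; 0.057 without propiconazole array 3), and it rose by 0.81 ± 0.17 over control with triadimefon. Adam4, a member of a family of membrane proteases, was under background on all propiconazole arrays at 4.58 to 5.57 and stood at 7.35 to 7.55 with triadimefon and 4.90 to 6.76 in controls, at least 2.41-fold lower with propiconazole (adjusted p = 4.9e-06). It rose by 1.71 ± 0.28 over control with triadimefon.

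The other genes called in both fits and lower with propiconazole differed in which compound was called against control. Ids, the lysosomal iduronate sulfatase, read 7.40, 7.43 and 7.38 with propiconazole, 8.31, 8.08 and 8.22 with triadimefon and 7.87 to 7.90 in controls (difference -0.80 ± 0.16, adjusted p = 0.0046). Only 3 of its 6 probe sets had that direction, and with their median the adjusted p was 0.64. Neither compound was called against control for Ids. Arpin, an inhibitor of the Arp2/3 complex, read 6.13, 5.73 and 6.43 with propiconazole, 1 of 3 above background, 7.21, 7.33 and 7.43 with triadimefon and 6.54 to 7.15 in controls (difference -1.23 ± 0.16, adjusted p = 3.8e-05), and against control it fell by 0.66 with propiconazole and rose by 0.56 with triadimefon. Onecut2, a hepatic transcription factor, read 7.92, 8.25 and 8.03 against 8.73, 8.66 and 9.02 (difference -0.74 ± 0.21, adjusted p = 0.043), a call that held only without propiconazole array 2 among the 6 arrays left out in turn and that rested on another probe set in the 17-array fit. Sh3bp5, a guanine exchange factor, differed by -0.56 (adjusted p = 0.015, and 0.057 without propiconazole array 2), with 2 of 3 probe sets in that direction and an adjusted p of 0.98 for their median. Onecut2 and Sh3bp5 fell by 0.66 and 0.65 against control with propiconazole and were not called with triadimefon. Mcm3ap, a nuclear RNA export factor, was at least 1.46-fold lower with propiconazole, at 4.48, 4.00 and 4.00 against 6.70, 6.49 and 6.90. Adam22, a neuronal membrane protein, was at least 1.75-fold lower, at 4.36 to 5.25 against 6.39 to 7.50, with 1 of 2 probe sets in that direction. Cenpl, a centromere protein, differed by -1.40 with no array of either group above background and lost its call without triadimefon array 3. The clone-named 5330411J11Rik was under background on all arrays, with propiconazole and control at the floor of 4 and triadimefon at 4.69 to 4.86, and no fold is given.

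**Figure D4:**
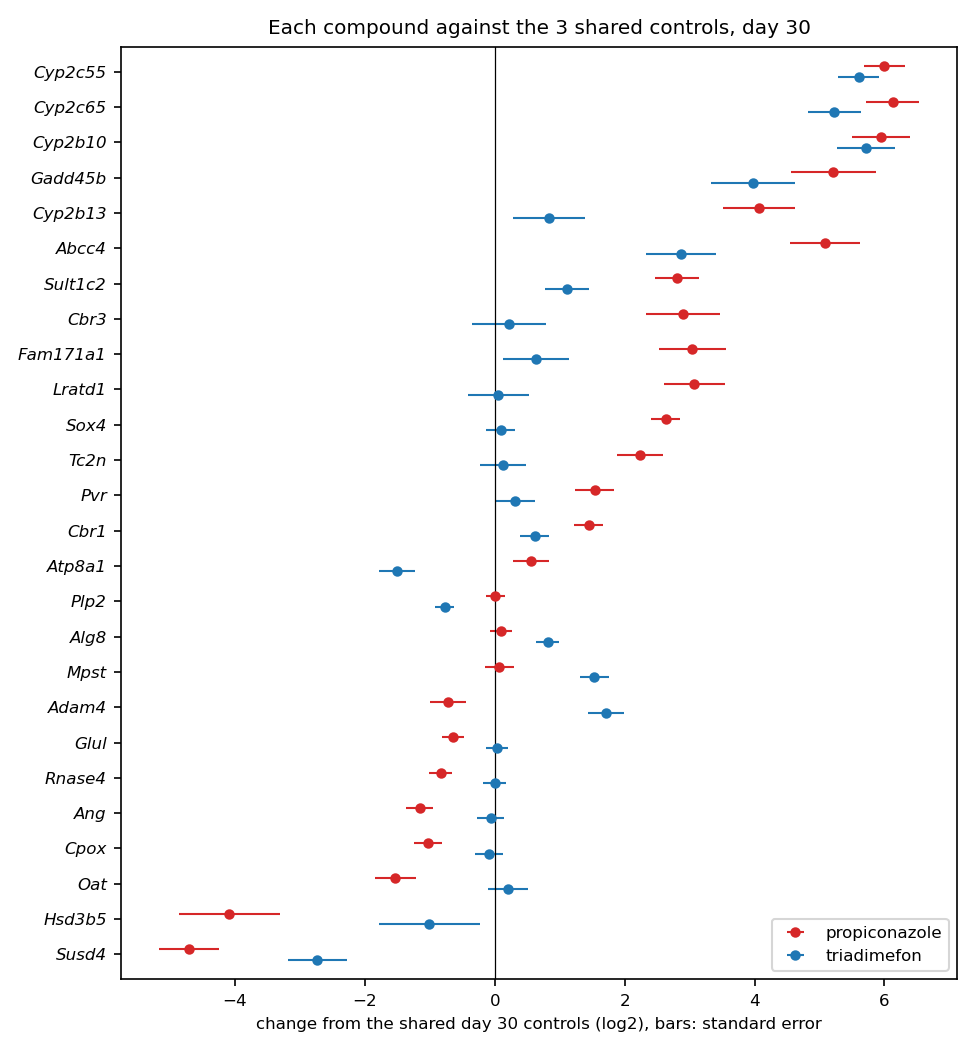
Change from the 3 shared controls on day 30 (log2, bars are SE) for 26 genes, with propiconazole and triadimefon as separate points. Cyp2c55, Cyp2c65 and Cyp2b10 rose with both; Sox4, Lratd1 and Cyp2b13 were far from 0 with propiconazole; Atp8a1 and Plp2 were below 0, and Mpst and Alg8 above 0, with triadimefon.

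Some of the largest differences were called with 38 arrays only. Fam171a1, a membrane protein, read 8.33, 8.77 and 8.82 with propiconazole and 6.12, 6.34 and 6.22 with triadimefon (difference 2.41, adjusted p = 0.0068, 0.066 with 17 arrays). Prss8, an epithelial serine protease, was at least 4.40-fold higher, at 8.75, 7.35 and 8.77 against 5.07 to 5.60, and stayed called only without propiconazole array 2 or triadimefon array 2. Fgfrl1, a decoy receptor for fibroblast growth factors, read 9.14, 8.66 and 8.54 against 4.33, 8.02 and 5.05, where 1 of 3 triadimefon arrays was above background, and stayed called only without triadimefon array 2. The other genes higher with propiconazole were Il1f8 and Tnfsf4, cytokine genes, at least 2.65-fold and 2.44-fold higher, Slc30a3, a zinc transporter, at a difference of 2.39, and Paqr5. Il1f8 lost its call without triadimefon array 1 and Slc30a3 without triadimefon array 3. Paqr5, a membrane progestin receptor above background on no triadimefon array, was at least 1.25-fold higher; it differed by 2.48 in the 38-array fit and by -0.03 with 17 arrays, where another of its 4 probe sets stood for it.

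Zmynd8, a chromatin reader, was above background on no propiconazole array and at least 2.77-fold lower; it differed by -2.99 in the 38-array fit and by -0.31 with 17 arrays, also through another probe set. Of the other genes lower with propiconazole, Wfdc2, a secreted protease inhibitor, read 5.31, 4.00 and 4.72 against 7.36, 6.92 and 7.34 and was at least 2.08-fold lower (adjusted p = 0.00079, 0.069 with 17 arrays). Atp11a, a flippase, read 7.39, 6.32 and 6.10 against 9.03, 8.12 and 10.01 (difference -2.45, adjusted p = 0.0097) and lost its call without propiconazole array 3 or triadimefon array 3. Cep170b, a centrosome protein, differed by -2.04, with 1 of 3 propiconazole arrays above background. Eppk1, a plakin of epithelia, Neurod4, a neuronal factor, and C1qtnf6, a secreted C1q-like protein, were above background on no propiconazole array and on 2 of 3 triadimefon arrays, and were at least 1.21-fold, 1.69-fold and 2.16-fold lower with propiconazole. Of the 3 probe sets of Neurod4 only 1 had that direction, and its call was lost with their median. Cep170b was called without each of the 6 arrays. Eppk1 lost its call without propiconazole array 3 or triadimefon array 2 or 3, Neurod4 without propiconazole array 1 or 3 or triadimefon array 1 or 2, and C1qtnf6 without propiconazole array 2 or triadimefon array 2 or 3.

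Genes of inflammation spread widely among arrays of 1 group. Of 30 acute phase genes none was called, with a median of -0.41. Saa2, serum amyloid A, read 12.01, 7.29 and 8.94 with propiconazole, 12.45, 7.93 and 12.97 with triadimefon and 8.21, 8.55 and 7.58 in controls. Mt1, a metallothionein, read 11.57, 7.60 and 10.08 with propiconazole, 12.20, 11.87 and 13.11 with triadimefon and 10.33, 10.96 and 7.63 in controls (difference -2.64, interval -5.08 to -0.20, adjusted p = 0.24). Lcn2, lipocalin 2, read 11.37, 9.09 and 10.55 with propiconazole, 11.66, 8.79 and 12.52 with triadimefon and 5.18, 4.32 and 4.00 in controls. Triadimefon arrays 1 and 3 were high and array 2 low for Saa2 and Lcn2, and propiconazole array 1 was the highest of its group. Ccl9, a macrophage chemokine, was the 1 called of 23 chemokine and cytokine genes (4.35%, near the 3.9% of all genes). It read 12.09, 12.01 and 12.20 with propiconazole against 11.48, 11.25 and 11.66 with triadimefon (difference 0.63, adjusted p = 0.046). It stayed called in 0 of the 6 fits that leave out an array.

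Markers of other cell types were read beside these genes, and their part in the results was not tested. None of 19 Kupffer cell and macrophage markers was called between the compounds (median -0.50), and their summed intensity was 8496 to 15530 with propiconazole, 7900 to 26100 with triadimefon and 6405 to 8355 in controls. Neutrophil markers summed to 463.6 to 5019, 1893 to 2560 and 526.6 to 687.9, and for each compound 6 of 11 were under background on all its arrays. Erythroid markers summed to 1314 to 4287, 3169 to 5454 and 751.6 to 3229, and overlapped between the compounds. For each compound 4 of these 7 were under background on all its arrays, and whether such cells bear on the heme genes was not tested. Stellate markers did not overlap, at 5432 to 5711, 6021 to 6345 and 6924 to 9206, with none of 16 called.

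Day 4 of the same experiment, on other arrays, gives a second look at the same pair of diets. The compounds differed there at 326 genes (1.84%; 174 higher and 152 lower with propiconazole), at 155 without array 2 of propiconazole, and with 17 arrays at 0, with 1131 genes at an unadjusted p under 0.05. On the intensities as deposited, without common scaling, the day 4 split was 92 higher and 5954 lower, with a median of -0.38 over all genes. The gap between 3′ and 5′ Actb probes was 0.618 to 1.84 log2 units on the day 4 arrays of both compounds. On their day 30 arrays it was 0.345 to 0.471, so array quality and day cannot be told apart in what differs between the days. Of the 39 genes, 0 were called on day 4. Cyp2b13 differed by -0.42 ± 0.56 on day 4 against 3.22 ± 0.56 on day 30, Sox4 by 0.06 ± 0.22 against 2.54 ± 0.22 and Mpst by 0.33 ± 0.22 against -1.46 ± 0.22. Oat differed by -0.73 ± 0.31 and Lratd1 by 1.47 ± 0.47 on day 4, in the direction of day 30. Sult1c2 was called on both days, at 1.27 ± 0.33 (adjusted p = 0.043) and 1.69 ± 0.33.

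The test of the change between the days, day 30 minus day 4, called 392 genes (2.21%; 199 higher, 193 lower), 19 of them among the 39. The 39 genes were picked by their day 30 difference, which is part of this change, so the 19 are no independent evidence of it. On the intensities as deposited the split was 2605 higher and 114 lower, with a median of 0.35 over all genes. With 17 arrays it called 0, with 1502 genes at an unadjusted p under 0.05. The change was 2.48 ± 0.32 for Sox4 (adjusted p = 7.6e-05 with 38 arrays, 0.080 with 17), 3.64 ± 0.79 for Cyp2b13 (adjusted p = 0.011 and 0.14), 1.19 ± 0.18 for Atg4d (adjusted p = 0.00048 and 0.080) and -1.79 ± 0.31 for Mpst (adjusted p = 0.0021 and 0.21). Oat and Glul gave changes of -1.0 ± 0.44 and -0.69 ± 0.24 that did not pass the test (adjusted p = 0.23 and 0.11). The count of 392 depended on single arrays: without array 1, 2 or 3 of propiconazole on day 4 it was 1787, 409 or 1179, without triadimefon array 1 of day 4 it was 196, and without propiconazole array 3 or triadimefon array 3 of day 30 it was 247 or 239.

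**Figure D5:**
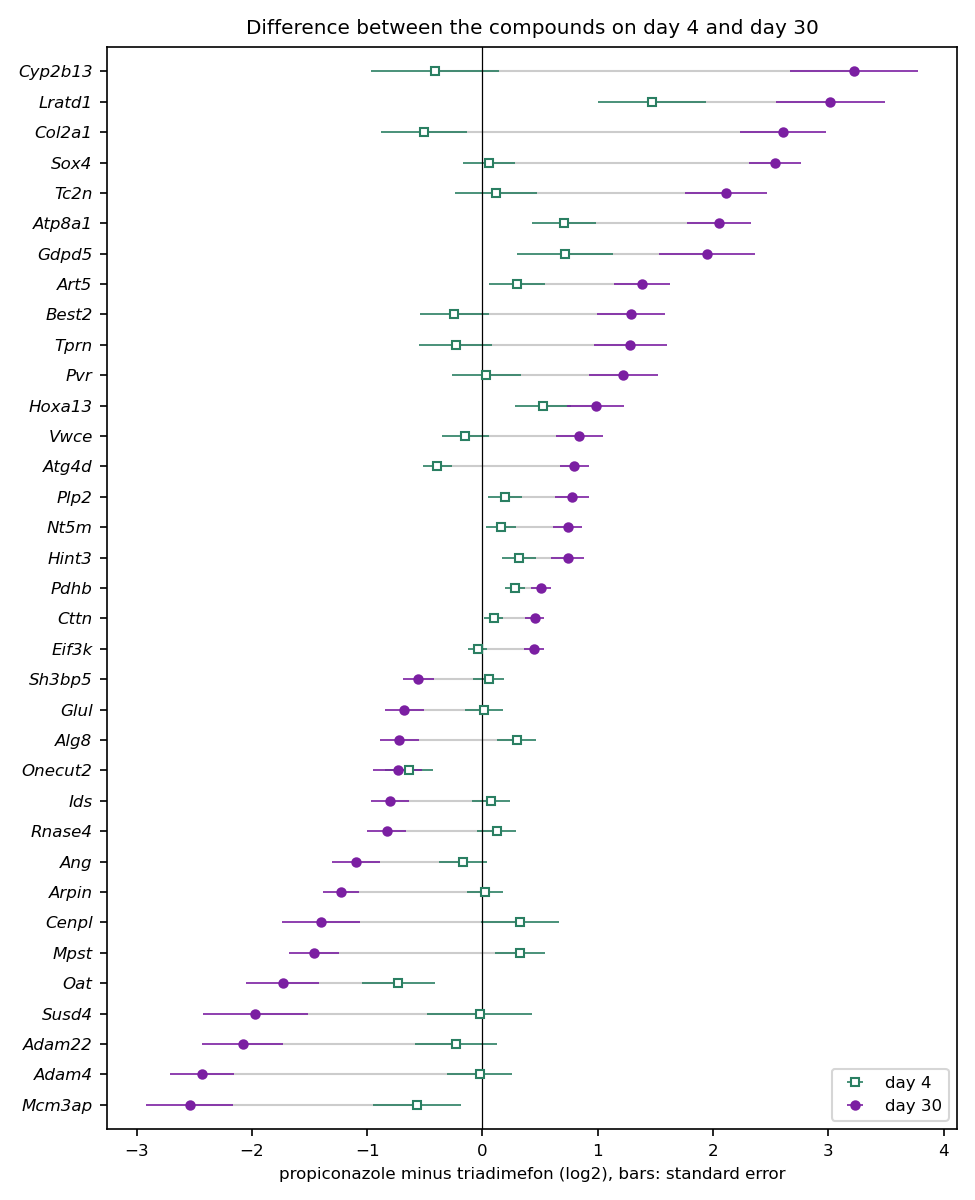
Difference propiconazole minus triadimefon (log2, bars are SE) for 35 genes called in both fits of day 30, with day 4 as open squares and day 30 as filled circles. On day 4 most squares lay near 0, and none of these genes was called; Sox4 went from 0.06 to 2.54 and Cyp2b13 from -0.42 to 3.22.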

How the data were processed

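RNA from mouse liver (4 ug per array) was labelled with biotin and hybridised to Affymetrix whole-genome mouse arrays, per the labels' protocols. The deposited values are 1 intensity per probe set and array on a linear scale with negative values; which software made them is not given in the sources used. All 38 arrays were quantile normalised, negative values set to 0 and 16 added before log2. Of 45101 probe sets, 34958 had 1 gene symbol and 932 several in the platform annotation; the probe set with the highest mean stood for a gene (9012 genes had more than 1). That left 17729 genes after 465 constant ones. limma 3.58.1 (R 4.3.3) fitted 1 mean per group over 38 arrays (eBayes with trend, 28 residual and 2.91 prior degrees of freedom), with Benjamini-Hochberg adjustment over all genes and p under 0.05; the code was tested on simulated data. Named genes were the 12 largest called non-overlapping differences in each direction, up to 4 called members per gene list and the 5 largest called changes between days in each direction; the 39 genes called in both fits, and genes given beside lists that were not called, were added after their values were seen. Members, lists (51 lists, 903 measured genes) and the 17-array fit were chosen with earlier results of these data known. Sequences are RefSeq's. Python 3.11.15, pandas 2.3.3 and Biopython 1.88 were used. Alternatives were scaling, the number added, a background filter, which arrays enter, leaving out each array, a replicate block, probe set summary and array weights.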

Additional observations from a re-analysis of the deposited data

Results flagged for a closer look

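The genes named were picked by their day 30 difference or by its change between days, so how many of them pass here is no independent evidence. The difference between the compounds was not the same on day 4 and day 30, by the limma test of the difference itself with 38 arrays, for 34 of the genes named. None of these passed with 17 arrays, and 8 of them, Zmynd8, Mcm3ap, Tgm5, Pak4, Best2, Eif3k, Ids and Rnase4, did not pass with 38 arrays once array 2 of propiconazole on day 4 was left out. All values are day 30 minus day 4 of propiconazole minus triadimefon, in log2 units.

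Toward propiconazole, among genes called in both fits of day 30, the change was 3.64 for Cyp2b13, 3.11 for Col2a1, 2.48 for Sox4, 2.0 for Tc2n, 1.53 for Best2, 1.19 for Atg4d and 0.49 for Eif3k. The clone-named genes changed by 2.72 for Gm17508, 1.77 for Gm732 and 1.40 for 2810410L24Rik. Genes called on day 30 with 38 arrays only changed by 4.56 for Fgfrl1, 3.56 for Il1f8, 3.48 for Slc30a3 and 2.57 for Paqr5. Inhba, an activin subunit also called on day 30 with 38 arrays only, changed by 4.14. Of its 2 probe sets, 1 had the direction of the day 30 difference. Tgm5, a transglutaminase, changed by 3.77 and Mvk, mevalonate kinase, by 3.61, and neither was called on day 30. Mvk differed by -3.38 on day 4 itself (adjusted p = 0.0017), where it read 4.00, 4.00 and 6.62 with propiconazole. Tgm5 read 6.28, 4.00 and 4.00 on the same arrays, so the sizes of both changes depend on the floor.

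Toward triadimefon, among genes called in both fits, the change was -2.41 for Adam4, -1.97 for Mcm3ap, -1.85 for Adam22, -1.79 for Mpst, -1.25 for Arpin, -1.02 for Alg8, -0.99 for 5330411J11Rik, -0.95 for Rnase4 and -0.88 for Ids. Genes called on day 30 with 38 arrays only changed by -2.43 for Wfdc2, -2.18 for Zmynd8 and -2.18 for Cep170b. Also called on day 30 with 38 arrays only, Myo7b, a myosin of microvilli, changed by -3.21 and Mnt, a MAX-binding repressor, by -3.0. Usp30, a mitochondrial deubiquitinase called in the same way, changed by -2.69. Il1r1, the interleukin 1 receptor, changed by -3.93 and Pak4, a kinase, by -2.89, and neither was called on day 30. For Il1r1 and for Usp30, 1 of 2 probe sets had the direction of the day 30 difference. The day 30 call of Usp30 was lost with the median over its probe sets. Mnt was at the floor of 4 on every propiconazole array of day 30, and Pak4 on every triadimefon array of day 4. Il1r1 read 4.00, 5.33 and 4.00 with propiconazole on day 30. The sizes for Mnt, Pak4 and Il1r1 therefore depend on the floor. With 17 arrays another probe set stood for Mnt, with a change of -0.40. On day 4 itself Il1r1 differed by 2.69 (adjusted p = 0.017), Myo7b by 1.34 (adjusted p = 0.042) and Pak4 by 2.06 (adjusted p = 0.048).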

How the results depend on the processing

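Only 3 arrays per compound limit the precision, and 9260 of 17729 genes had a mean above background. Against 692 genes between the compounds on day 30, 392 for the change between days, 1917 for propiconazole and 958 for triadimefon against control and 326 on day 4, the counts were as follows. Deposited values gave 277, 2719, 1068, 393 and 6046. Median scaling gave 459, 288, 1405, 604 and 389. Genes above background alone gave 453 and 257 for the first pair. The arrays compared alone gave 0, 1, 273, 63 and 0, with 2156, 1267 and 760 genes at an unadjusted p under 0.05 for the first, second and last. The 18 conazole arrays gave 12, 0, 319, 42 and 0, with 1471 and 1543 at an unadjusted p under 0.05 for both zeros. Without array 2 of propiconazole on day 4 the counts were 1159, 390, 2795, 1696 and 155. With 17 arrays day 30 gave 43, with 9 it gave 28, and with array weights 473. Leaving out each array in turn gave 416 to 669 for day 30 and 196 to 1787 for the change between days. Fewer arrays leave fewer degrees of freedom; beyond that the cause was not tested. The replicate block gave 815 and 607; deviations of same-numbered arrays correlated at -0.0074, 0.13 and 0.018, so the numbers were not taken to pair arrays. Of 1407 values of named genes under alternatives on day 30, 969 kept direction and call, 434 lost the call and 4 reversed, all of Paqr5: -0.0428 with 4 added in place of 16, -0.0287 with 18 and with 9 conazole arrays and -0.0289 with 17. Of 738 values of the change between days, 540 kept both, 197 lost the call and 1 reversed, Mnt at 0.376 with 18 conazole arrays.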
